A study of Mus musculus with 6 samples.

Results

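Erythroid genes other than the globins were examined in retinas of mouse embryos at embryonic day 13.5. They are 30 genes of red cell membrane, haem synthesis and erythroid transcription, taken by symbol. All 30 were found among the 26147 genes of the table. They were grouped as 16 red cell specific genes, 8 genes that red cells make in large amounts but other tissues make too, and 6 haem enzymes expressed in most cells. RNA came from 3 libraries of each group, wild type and conditional Tbx3 knockout (Tbx3 cKO), all on a C57BL/6J background. The wild types were Cre-negative siblings carrying Tbx3Fl/+, and the cKO embryos were Dkk3-Cre+ with Tbx3∆Fl/∆Fl, so effects of Cre and of losing Tbx3 cannot be told apart. The Dkk3-Cre transgene is a driver of recombination in retinal progenitors. The sources used here give neither the number of embryos per library nor their litters, so p-values cover only the variation among these 6 libraries, some of it possibly technical.

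Red cells reach the embryonic eye through its blood vessels. The first red cells of a mouse embryo come from the yolk sac, circulate with a nucleus and carry embryonic globins, and they are later joined by cells from the liver that carry adult globins. An erythroblast switches on its genes under Gata1, Klf1 and Nfe2, builds a membrane skeleton around band 3 and spectrin, and makes haem in a pathway that starts with Alas2 and ends with Fech. Alas2 and some membrane genes, such as Slc4a1 and Rhag, are close to exclusive to red cells. Genes of the membrane skeleton such as Sptb, Ank1 and Epb41 are made in other tissues too. The later enzymes of the haem pathway are needed by every cell with mitochondria.

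Tbx3 had normalized read counts of 1998, 2558 and 2577 in wild type against 40.3, 47.8 and 58.9 in Tbx3 cKO (limma log2 fold change -5.58 with an SE of 0.20, adjusted p = 0.000342), so the targeted gene was low in each library labelled cKO. Each library held an estimated 21478376 to 27174646 reads. Where a gene is listed at 0, as many as 3 reads remain possible, worth 2.69 to 3.41 normalized units (counting error only). Defining genes of the retina were present in all 6 libraries, with a sum over 7 genes of 62388 to 67231 in 5 libraries and 42199 in Tbx3 cKO 3. Between the groups, 5 of the 7 had a negative log2 fold change and 2 a positive one (48% of all genes tested were positive). Sox2, chosen after its values were seen, was 1568 in Tbx3 cKO 3 against 4675 to 6352 elsewhere. Pax6 was highest in that library, at 18941 against 17968 to 18762 elsewhere. By Xist, wild type 1, Tbx3 cKO 1 and Tbx3 cKO 2 were male and the other 3 libraries female.

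Sequences before the start sites were compared first, because the red cell specific genes share a known regulator. RefSeq promoters (build GRCm38.p6, not the GRCm39 named for the study's files) were matched for 24 of the 30 genes, and the 250 bases upstream of each start were searched on both strands. The red cell specific genes Slc4a1, Ahsp and Nfe2 had no promoter entry and were not searched, nor were Ank1, Slc25a37 and Fech. The GATA motifs AGATAA or TGATAA stood in 10 of 13 red cell specific promoters (76.9%), against 16.6% of all 32851 promoters of the same length. Among the genes also made elsewhere 1 of 9 promoters, from 6 genes, held one (11.1%), and among the haem enzymes 2 of 7, from 5 genes (28.6%). The motif CCNCNCCC, a form bound by Klf1, was in 38.5% of red cell specific promoters, 88.9% of those also made elsewhere and 45.9% of all. The NF-E2 core TGAGTCA was in Kel and Trim10 (15.4% of the red cell specific promoters, 4.46% of all). Shown are 3 red cell specific promoters with GATA letters and, for contrast, the haem enzyme gene Ppox with none of the 4 motifs. No exon of the GENCODE M21 annotation lies in these 4 windows. Each of the other red cell specific windows with GATA letters overlaps such an exon. The longest overlap with a single exon runs from 14 bases in Kel to 195 of the 250 in Epb42. Capitals mark the motifs on either strand (TTATCT is AGATAA read on the opposite strand, and the G-rich capitals are CCNCNCCC on the opposite strand).
Trim10 (chr17:36869324-36869573, plus strand): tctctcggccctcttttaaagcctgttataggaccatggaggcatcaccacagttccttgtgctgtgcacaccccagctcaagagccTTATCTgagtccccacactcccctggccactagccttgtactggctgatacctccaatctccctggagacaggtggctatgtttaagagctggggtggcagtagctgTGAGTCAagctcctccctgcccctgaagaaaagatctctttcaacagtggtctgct
Rhd (chr4:134864286-134864535, plus strand): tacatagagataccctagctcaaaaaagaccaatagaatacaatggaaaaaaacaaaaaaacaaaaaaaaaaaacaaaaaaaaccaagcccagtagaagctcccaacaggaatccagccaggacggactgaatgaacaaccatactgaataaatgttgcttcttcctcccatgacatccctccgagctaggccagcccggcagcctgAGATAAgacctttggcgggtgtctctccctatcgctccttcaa
Gfi1b (chr2:28621983-28622232, minus strand): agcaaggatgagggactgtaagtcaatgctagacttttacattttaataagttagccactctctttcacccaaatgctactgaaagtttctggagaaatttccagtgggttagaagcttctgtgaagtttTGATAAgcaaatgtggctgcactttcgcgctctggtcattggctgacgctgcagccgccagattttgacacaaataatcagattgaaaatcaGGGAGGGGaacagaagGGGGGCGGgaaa
Ppox (chr1:171281187-171281436, minus strand): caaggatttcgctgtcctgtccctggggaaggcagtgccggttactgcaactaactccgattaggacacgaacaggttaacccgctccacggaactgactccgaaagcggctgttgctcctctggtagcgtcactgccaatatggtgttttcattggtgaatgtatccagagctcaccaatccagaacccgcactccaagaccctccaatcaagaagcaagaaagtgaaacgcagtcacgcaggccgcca
In Trim10 the GATA letters begin 163 bases and the NF-E2 core 56 bases before the start. In Rhd the GATA letters begin 43 bases before it, and in Gfi1b 120 bases before it. These matches describe the letters only. Binding was not measured.

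Red cell specific genes were higher in the Tbx3 cKO libraries. The summed normalized read count of the 16 was 1314, 2701 and 1825 in wild type against 4675, 7321 and 23973 in Tbx3 cKO. The groups did not overlap, and the cKO mean was 6.16-fold that of wild type, or 3.08-fold without Tbx3 cKO 3. All 15 that could be tested had a positive log2 fold change, with a median of 2.63 against -0.02 over all 18914 genes tested, of which 48% were positive. Of the 15, 12 had no overlap between groups, where 10.6% of all genes lay higher in Tbx3 cKO in that way, and 14 had an unadjusted limma p under 0.05, against 6.39% of all genes. No member was lower at that p, where 7.16% of all genes were. None passed the adjusted threshold of 0.05 (0 of the 30 by limma, where 6 of all genes, 0.0317%, did so as higher), and the smallest adjusted p was 0.273. Gata1 and Tspo2, both among the 12 without overlap, reached 10 in only 1 wild-type library and passed the filter through the cKO libraries. With a minimum of 10 in all libraries, 7 of the 9 genes left had no overlap. Of all genes under that filter, 1658 of 15867 lay higher in that way. In bulk tissue more red cells and more RNA per red cell cannot be told apart. Tbx3 cKO 3 was the highest library for all 16 genes and wild type 1 the lowest for 11. The count of 14 of 15 was 7 of 14 without Tbx3 cKO 3, 8 of 14 without Tbx3 cKO 2 and 9 of 14 without wild type 1. Over all genes the same 3 fits gave 750 of 18376, 1355 of 18408 and 716 of 18500 as higher, against 1208 of 18914 with all libraries. Leaving out both Tbx3 cKO 3 and wild type 1 gave a median of 1.25.

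**Figure D1:**
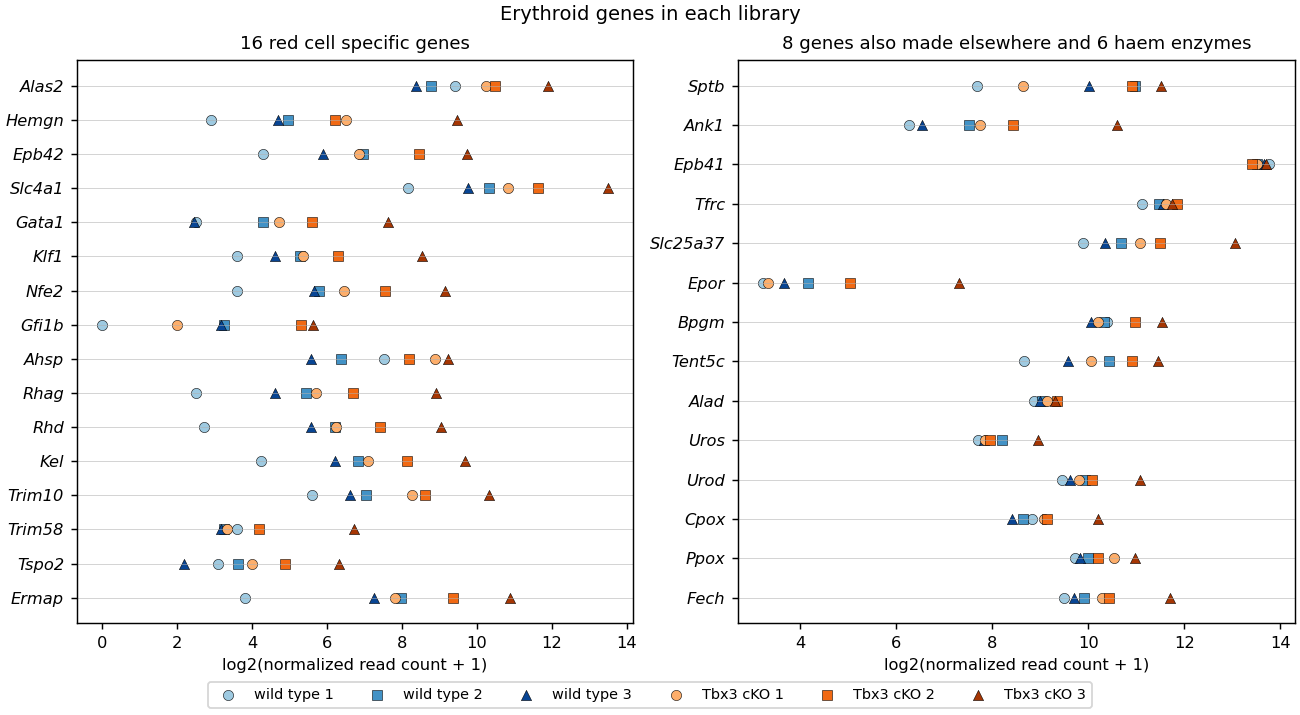
Normalized read counts of the 30 genes, as log2(value + 1), in each of the 6 libraries (blue, wild type; orange, Tbx3 cKO; the symbol gives the replicate number). Tbx3 cKO 3 lies farthest right for all 16 red cell specific genes on the left, while Epb41 on the right spans only 10913 to 13962.

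Among red cell specific genes of the membrane, Slc4a1, Rhag, Rhd, Kel and Tspo2 had no overlap between groups, where 10.6% of all genes lay higher in that way, while Epb42 and Ermap overlapped. None of them passed the adjusted threshold. Slc4a1 (ENSMUSG00000006574), which encodes the anion exchanger band 3, had normalized read counts of 287, 1276 and 872 in wild type against 1827, 3170 and 11627 in Tbx3 cKO. The groups did not overlap, and wild type 1 was the lowest (limma log2 fold change 2.57 with an SE of 0.77, adjusted p = 0.322). Rhag (ENSMUSG00000023926), the Rh-associated glycoprotein that carries ammonia, was 4.67, 42.3 and 23.3 in wild type against 51.4, 104 and 479 in Tbx3 cKO. Its partner Rhd, the Rh antigen, was 5.602, 73.3 and 46.6 against 74.6, 170 and 529. In both Rh genes Tbx3 cKO 1 stood only just above wild type 2. Kel, a membrane peptidase that carries the Kell antigen, was 17.7, 113 and 73.6 against 136, 282 and 828, also without overlap.

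Epb42 (ENSMUSG00000023216), protein 4.2, which ties band 3 to the skeleton, was 18.7, 124 and 58.3 in wild type against 114, 348 and 855 in Tbx3 cKO. Ermap, an immunoglobulin-like protein of the erythroid membrane, was 13.1, 250 and 151 against 225, 653 and 1894. In these 2 genes wild type 2 lay above Tbx3 cKO 1, so the groups overlapped. Tspo2, a relative of the mitochondrial translocator protein, was a low gene at 7.47, 11.3 and 3.59 against 15.1, 28.4 and 78.9. The 95% intervals of the log2 fold change ran from 0.21 to 5.81 in Ermap and from 0.54 to 4.71 in Epb42, so the size of these differences is poorly fixed.

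Skeleton genes that other tissues also make differed less evenly. Ank1 (ENSMUSG00000031543), the ankyrin that joins band 3 to spectrin, was 75.7, 182 and 92.4 in wild type against 214, 344 and 1553 in Tbx3 cKO, with no overlap (limma log2 fold change 2.15 with an SE of 0.73, adjusted p = 0.335). Sptb, beta spectrin, was 205, 2008 and 1040 against 397, 1926 and 2913. Both replicate 1 libraries were far below the others in Sptb, and its log2 fold change of 0.79 turned to -0.15 without wild type 1. Epb41, protein 4.1, which neurons make as well, was 12851 ± 1149 in wild type against 11958 ± 1245 in Tbx3 cKO (SD, n = 3 each). Its log2 fold change of -0.11 (95% interval -0.39 to 0.18) was the only negative value among the 29 genes tested.

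Transcription factors of the erythroid line were low but higher in Tbx3 cKO. Gata1 (ENSMUSG00000031162), the X-linked master factor of red cells, was 4.67, 18.8 and 4.49 in wild type against 25.2, 47.8 and 198 in Tbx3 cKO. Klf1 (ENSMUSG00000054191), which activates adult beta globin and membrane genes, was 11.2, 37.6 and 23.3 against 40.3, 77.4 and 373. Nfe2 (ENSMUSG00000058794), the large subunit of NF-E2, was 11.2, 54.5 and 49.3 against 86.7, 185 and 564. None of the 3 factors had overlapping groups, where 10.6% of all genes lay higher without overlap. Their log2 fold changes were 2.90 (SE 0.88), 2.24 (SE 0.85) and 2.69 (SE 0.83), with limma adjusted p of 0.324, 0.350 and 0.324. Gata1 reached 10 in only 1 wild-type library. Gfi1b, a repressor in erythroid and platelet precursors, was 0, 8.46 and 8.07 against 3.02, 38.7 and 48.4. It reached 10 in only 2 libraries and was the 1 member left out of the test. Hemgn (ENSMUSG00000028332), a nuclear protein of blood cell precursors, had the largest log2 fold change of the 29 at 3.21 (SE 0.96, limma adjusted p = 0.322). It was 6.54, 30.1 and 25.1 in wild type against 90.7, 72.8 and 712 in Tbx3 cKO.

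Trim10, Trim58 and Epor had the same order of group means, with overlap in Trim58 and Epor. Trim10 (ENSMUSG00000073400), an erythroid ubiquitin ligase, was 47.6, 130 and 96.9 in wild type against 306, 395 and 1285 in Tbx3 cKO. Each cKO library was above each wild type (limma log2 fold change 2.66 with an SE of 0.60, adjusted p = 0.273). Trim58, a ligase that acts in loss of the nucleus, was 11.2, 8.46 and 8.07 against 9.07, 17.1 and 104, so its mean rested on Tbx3 cKO 3. Its 95% interval of -0.68 to 3.48 on the log2 scale includes 0. Epor, the erythropoietin receptor, is of the class also made elsewhere and was 8.40, 16.9 and 11.7 against 9.07, 31.9 and 157. In both Trim58 and Epor, Tbx3 cKO 1 lay within the wild-type range and Tbx3 cKO 2 above it. The 95% interval of Epor, -0.75 to 3.83, also includes 0.

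Alas2 (ENSMUSG00000025270), the X-linked enzyme that starts haem synthesis in red cells, was 686, 442 and 335 in wild type against 1203, 1443 and 3794 in Tbx3 cKO (limma log2 fold change 2.01 with an SE of 0.46, adjusted p = 0.279). Ahsp (ENSMUSG00000121605), the chaperone of free alpha globin, was 182, 82.7 and 46.6 against 468, 289 and 604 (limma log2 fold change 2.27 with an SE of 0.51, adjusted p = 0.273). Neither gene overlapped between groups. Unlike in most members, wild type 1 was the highest wild-type library in both. Slc25a37, mitoferrin 1, which brings iron into mitochondria, was 949, 1635 and 1304 against 2145, 2873 and 8499, without overlap.

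**Figure D2:**
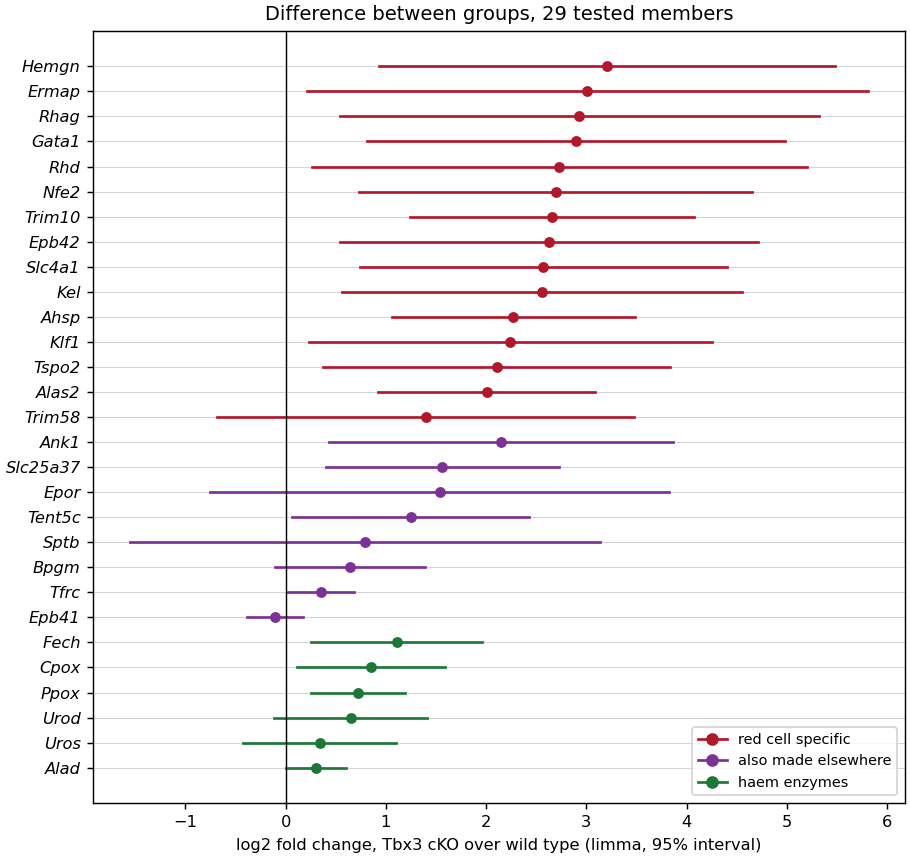
Log2 fold change of Tbx3 cKO over wild type with its 95% interval by limma for the 29 tested genes, coloured by class. Red cell specific genes lie between 1.397 and 3.21 and haem enzymes between 0.30 and 1.11, and Epb41 is the only gene below 0.

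The 6 broadly expressed haem enzymes were higher in Tbx3 cKO by less. All 6 had positive log2 fold changes with a median of 0.68, 4 had no overlap between groups (10.6% of all genes lay higher without overlap) and the same number had an unadjusted p under 0.05 (6.39% of all genes as higher). Fech (ENSMUSG00000024588), which inserts iron into the ring, was 717, 967 and 833 in wild type against 1252, 1390 and 3324 in Tbx3 cKO. Ppox, the enzyme before it, was 848, 1023 and 912 against 1484, 1182 and 2010 (limma log2 fold change 0.72 with an SE of 0.20, adjusted p = 0.318). Cpox, one step earlier, was 452, 397 and 337 against 540, 560 and 1181. In Fech and Cpox the first 2 cKO libraries stood above wild type and the third far above.

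Alad, the second enzyme of the pathway, was 500 ± 29.7 in wild type against 617 ± 44.5 in Tbx3 cKO (SD, n = 3 each), a small difference without overlap. Urod was 821 ± 135 against 1378 ± 685 and Uros 243 ± 45.3 against 324 ± 149, both with overlap. These 2 enzymes act in the middle of the pathway, and their spread in Tbx3 cKO came from replicate 3, at 2161 and 496. Without Tbx3 cKO 3 the log2 fold change of Uros was -0.01, and the median of the 6 enzymes was 0.38. Leaving out any 1 wild-type library left 2 of the 6 under an unadjusted p of 0.05. Over all genes 716 of 18500, 1192 of 18446 and 840 of 18494 were then higher at that p, without wild type 1, 2 and 3.

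Among the remaining genes also made elsewhere, Tfrc, the transferrin receptor, was 2209, 2848 and 3014 in wild type against 3162, 3675 and 3409 in Tbx3 cKO. The groups did not overlap, and here Tbx3 cKO 2 rather than 3 was the highest. Bpgm, which makes 2,3-bisphosphoglycerate, was 1345, 1293 and 1068 against 1173, 2022 and 2984. Tent5c, a poly(A) polymerase of erythroid and immune cells, was 401, 1382 and 767 against 1067, 1931 and 2785. Both overlapped. Over the 8 genes the median log2 fold change was 1.02, 7 were positive (48% of all genes), 3 had no overlap (10.6%) and 4 had an unadjusted p under 0.05 (6.39%). That count was 1 without wild type 1 and 2 on leaving out any of Tbx3 cKO 2, Tbx3 cKO 3 and wild type 3. Over all genes 716 of 18500 were higher at that p without wild type 1. The other 3 fits gave 1355 of 18408, 750 of 18376 and 840 of 18494, in the order named.

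Of all genes 10.6% lay higher in Tbx3 cKO without overlap, as did 19 members. For these 19 the exact two-sided permutation test gave p = 0.1, the smallest that 3 against 3 allows. That value follows from the lack of overlap and is no separate evidence. Within the 3 male libraries, 15 of the 16 red cell specific genes were higher in both cKO libraries than in wild type 1, the exception being Trim58, where 35.9% of all genes were higher in that way. Within the 3 female libraries all 16 were higher in Tbx3 cKO 3 than in both wild types, against 41.9% of all genes. With a term for sex in the fit, 17 of the 29 members passed the adjusted limma threshold as higher, beside 806 of all genes (4.26%), and none as lower, beside 817 of all genes (4.32%). They were 12 of the 15 red cell specific genes, Ank1, Slc25a37 and Tent5c, and the enzymes Fech and Ppox. In that fit Slc4a1 had a log2 fold change of 3.26 (SE 0.26, limma adjusted p = 0.00354) and Trim10 one of 3.18 (SE 0.25, limma adjusted p = 0.00354). Each sex held only 1 library of one of the groups, and the term also parts wild type 1 from the other wild types. What else it carries was not tested. In the fit on the 4 libraries other than Tbx3 cKO 3 and wild type 1, Alas2 was the only member of the 30 to pass (log2 fold change 1.77, limma adjusted p = 0.0376), beside 19 of all 17849 genes tested there that passed as higher (0.106%).

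Other erythroid genes, listed apart from the 30, were mixed. Of 24, 23 were matched and 22 tested, 16 were positive (48% of all genes), 8 had an unadjusted p under 0.05 as higher (6.39% of all genes) and none passed the adjusted threshold. Tal1, a factor that works with Gata1, was 55.1, 110 and 90.6 in wild type against 299, 482 and 996 in Tbx3 cKO (limma log2 fold change 2.66 with an SE of 0.47, adjusted p = 0.192). Its groups did not overlap. Of 26 other genes of haem and iron handling, 22 were positive with a median of 0.31, 6 had an unadjusted p under 0.05 as higher and 2 as lower, against 6.39% and 7.16% of all genes. Hmox1, which breaks haem down, was 149, 182 and 183 against 462, 297 and 618 (limma log2 fold change 1.36 with an SE of 0.28, adjusted p = 0.228). Blvrb, a biliverdin reductase that red cells hold in quantity, was 105, 140 and 108 against 270, 304 and 814.

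Summed levels of macrophage and megakaryocyte genes were also higher in all 3 Tbx3 cKO libraries than in wild type, and those of endothelial genes overlapped. The summed level of 15 macrophage genes was 1030 to 1928 in wild type against 3800 to 7962 in Tbx3 cKO, with 14 of 15 higher without overlap, as were 10.6% of all genes, and C1qa at 67.2, 90.2 and 102 against 292, 273 and 555. C1qc was 78.4, 129 and 126 against 329, 366 and 763. Both are complement genes of macrophages, which also take up red cells. The sum of 11 megakaryocyte genes was 245 to 420 against 620 to 1448, with 5 of 11 higher without overlap, against 10.6% of all genes. Of these 5, Gp9 and Gp5 reached 10 in 0 wild-type libraries and Treml1 in 1. They passed the filter only through the cKO libraries, which favours a lack of overlap. In wild type 1 Gp9 and Gp6 were listed at 0, and no gene of the macrophage or endothelial lists was at 0 in any library. Gp9 was 0, 3.76 and 6.28 against 27.2, 23.9 and 24.2, and Pf4 was 17.7, 71.4 and 71.8 against 143, 181 and 301. Megakaryocytes also express Gata1, Nfe2 and Gfi1b. The sum of 14 endothelial genes, leaving out Kdr, which the retina itself makes, was 566 to 2454 in wild type against 1850 to 4683 in Tbx3 cKO. These sums overlapped between groups, with Tbx3 cKO 2 at 1850 below wild type 2 at 2454, and 3 of the 15 endothelial genes were higher without overlap, against 10.6% of all genes. Sox17 was 7.47, 20.7 and 25.1 against 57.5, 30.7 and 68.4, and Esam 31.7, 53.6 and 61.9 against 201, 54.6 and 235. The mast cell list matched 2 of 7 genes and was not used further, Hdc being the 1 gene tested (log2 fold change 1.57, limma adjusted p = 0.402). The part of these cells in the erythroid values was not tested.

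**Figure D3:**
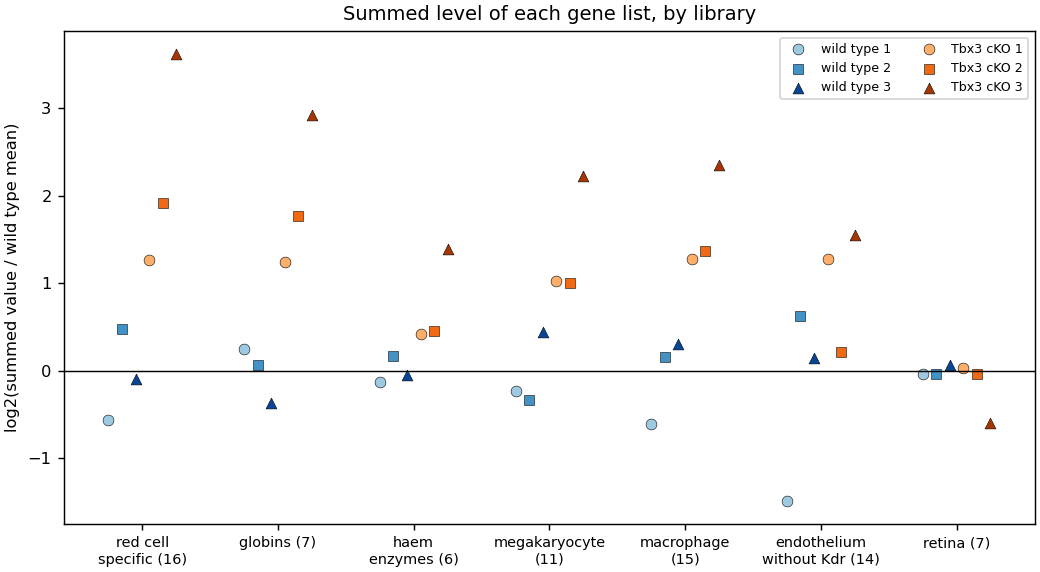
Summed normalized read counts of each gene list in each library, as log2 of the ratio to the wild-type mean, with the number of genes in brackets. Tbx3 cKO 3 is highest in each list drawn but retina, where it is lowest (with Kdr kept in, the endothelial sum is highest in Tbx3 cKO 1 at 6840), and the 3 cKO libraries lie above the 3 wild types for red cell specific, globin, haem enzyme, megakaryocyte and macrophage genes.

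Set against the globin transcripts of the same library, the red cell specific genes no longer parted the groups. The 7 globin genes held 0.385, 0.346 and 0.258% of the total in wild type against 0.817, 1.13 and 2.58% in Tbx3 cKO. Hba-a1 and Hba-a2 share near-identical sequence, as do Hbb-bs and Hbb-bt, so only sums are used for them. Per 100 globin counts the summed red cell specific level was 1.36, 3.18 and 2.90 in wild type against 2.44, 2.64 and 3.88 in Tbx3 cKO. The means stood at a ratio of 1.20, and at 0.98 without wild type 1. Taken singly, 0 of the 16 red cell specific genes had groups without overlap in either direction on this scale, while 82.4% of all genes lay lower in Tbx3 cKO without overlap and 0.106% higher. The ratio of cKO to wild type per globin ran from 0.806 in Trim58 to 2.30 in Hemgn, with a median of 1.22. The 6 haem enzymes were all lower per globin without overlap, with ratios of 0.314 in Uros to 0.527 in Fech, as were Epb41, Tfrc and Bpgm. For these genes the share is that of the background, so nothing particular to them is read from it.

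**Figure D4:**
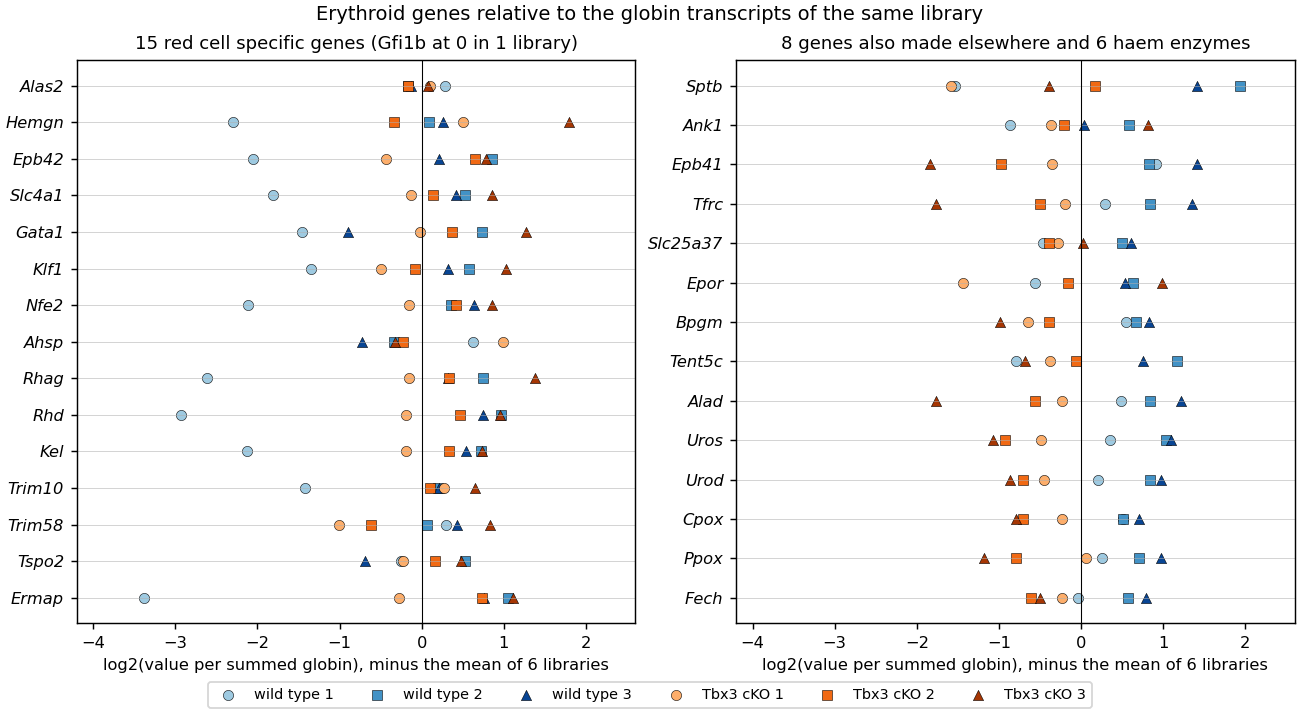
Each gene's value divided by the summed globin value of its library, on a log2 scale and centred on the mean of the 6 libraries (Gfi1b is left out because it is 0 in wild type 1). Red cell specific genes on the left show cKO libraries among the wild types with wild type 1 lowest in most, while all 6 haem enzymes on the right have the cKO libraries below the wild types.

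Within the red cell specific level, the make-up of the libraries differed along a line that is not the genotype. Embryonic Hbb-y was 24.9% of beta globin (Hbb-y, Hbb-bs and Hbb-bt) in wild type 1 and 42.8% in Tbx3 cKO 1, but 82.7 to 85.3% in the other 4 libraries. In the same 2 libraries Ahsp was 13.9% and 10.003% of the summed red cell specific level, against 2.52 to 3.95% in the other 4. Alas2 was 52.2% and 25.7% there, against 15.8 to 19.7%. Slc4a1 was lower in both, at 21.8% and 39.1% against 43.3 to 48.5%, and Ermap was 0.995% and 4.81% against 7.90 to 9.26%. These shares compare libraries, not genes, since the values are not corrected for transcript length. The 4 genes were chosen after their values were seen.

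Per 10000 globin counts, Alas2 was 71.2, 52.0 and 53.1 in wild type against 62.7, 52.0 and 61.3 in Tbx3 cKO. Ahsp was 18.9, 9.73 and 7.41 against 24.4, 10.4 and 9.77, highest in both replicate 1 libraries. Per 100 globin counts, the sum of the other 14 red cell specific genes ranged from 0.463 in wild type 1 to 3.16 in Tbx3 cKO 3. Wild type 1 had globin, Alas2 and Ahsp transcripts but few of the membrane and factor genes per globin. Within the 4 libraries of high embryonic share all 16 red cell specific genes were higher in both cKO libraries than in both wild types, where 21.6% of all genes were. In the fit on these 4 libraries the median log2 fold change was 2.64 over the 14 red cell specific genes tested. In the remaining pair 15 of the 16 were higher in Tbx3 cKO 1 than in wild type 1, where 48.7% of all genes were. Whether the 2 replicate 1 embryo samples shared a litter, an age or a way of dissection is not stated in the labels.

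**Figure D5:**
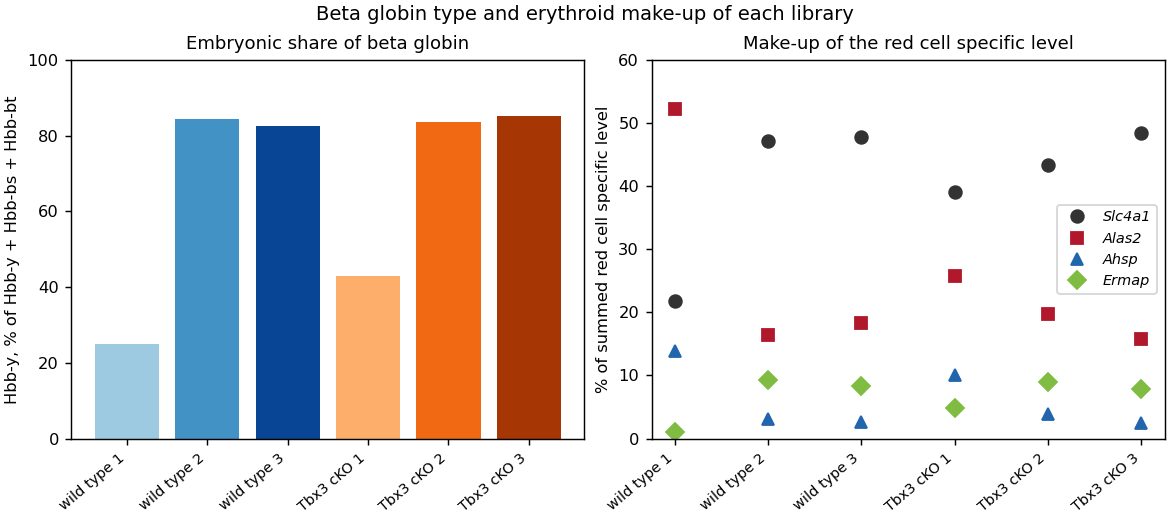
Left, Hbb-y as a percentage of the summed beta globin values of each library. Right, share of 4 genes in the summed level of the 16 red cell specific genes, in percent. Wild type 1 and Tbx3 cKO 1 have embryonic shares of 24.9 and 42.8% and the highest shares of Alas2 and Ahsp.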

How the data were processed

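PolyA RNA of embryonic day 13.5 retina was sequenced from NEBNext Ultra II Directional libraries, which keep strand, per the labels' protocols. The deposited values are a signal: read counts per gene that the authors normalized, by a method that the sources used here do not name. The submitters' processing notes name cutadapt 4.2, STAR 2.7.8a, Partek and GRCm39 (mm39), without their roles. Reads per library were estimated from the most frequent low value, taken as 1 read.

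The two-sided limma-trend test (limma 3.58.1, R 4.3.3) ran on log2(value + 1) for the 18914 genes that reached 10 in 3 or more libraries, and p-values were adjusted by Benjamini-Hochberg over all of them. Log2 fold changes are on the log2(value + 1) scale and understate low genes. No covariate or block was used. The steps were tested on simulated counts. The 30 members and the lists were chosen with earlier results of these data known, so no p is given for a list or a sum. All members are named, and of each other list the 2 genes of smallest p, except where a gene is not reported here. The planned exact tests of the summed level, the level per globin and the embryonic share are not printed, for the same reason. How reads of overlapping genes were counted is not known. Alternatives covered pseudocount, filter, scaling, trend, library weights, replicate block, terms for sex and embryonic globin share, and libraries left out.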

Additional observations from a re-analysis of the deposited data

How the results depend on the processing

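Alternatives left 26 of the 28 positive members positive in each setting that tested them, and Epb41 negative. Sptb was -0.060 with library weights, -0.15 to 1.65 leaving out 1 library (negative without wild type 1) and -0.72 without wild type 1 and Tbx3 cKO 3, and Uros -0.0100 (without Tbx3 cKO 3) to 0.54 leaving out 1 library and -0.12 without the same pair. The cause was not tested in any case below. Against 12 genes of all past the adjusted threshold, there were 55 with library weights, 2 with no trend, 102 with a term for embryonic globin share, 1623 with a term for sex, 36 without wild type 1 and Tbx3 cKO 3, 1 without wild type 1 and Tbx3 cKO 1, and 1 to 10 leaving out 1 library. Members past it were 17 with the sex term, 1 without wild type 1 and Tbx3 cKO 3, and 0 leaving out 1 library. Red cell specific genes at an unadjusted p under 0.05 were 9 of the 9 tested with a minimum of 10 in all libraries. They were 7 of 14 without wild type 1 and Tbx3 cKO 3. Leaving out 1 library they were 7 to 15, with 14 or 15 tested. For genes also made elsewhere the counts were 2, 7 and 2 with no trend, the sex term and without wild type 1 and Tbx3 cKO 3, and 1 to 6 leaving out 1 library. For haem enzymes they were 2 with no trend, 2 without wild type 1 and Tbx3 cKO 1, and 2 to 5 leaving out 1 library. Over all genes, those higher at that p were 1208 in the main fit and 716 to 1355 leaving out 1 library. There were 1014 of 15867 with a minimum of 10 in all libraries, 1232 with no trend and 2303 with the sex term. Without wild type 1 and Tbx3 cKO 3 there were 661 of 17849, and without wild type 1 and Tbx3 cKO 1 there were 685 of 17765. Without wild type 1 and Tbx3 cKO 3 the medians were 1.25 (red cell specific) and 0.33 (also made elsewhere). Leaving out 1 library gave 1.98 to 3.16, 0.43 to 1.64 and, for haem enzymes, 0.38 to 0.83, and a fold of summed red cell specific level of 3.08 to 8.04. The level per globin was 0.84 without wild type 1 and Tbx3 cKO 3 and 0.98 (without wild type 1) to 1.400 leaving out 1 library. The embryonic beta globin share differed by 6.59 points, by -20.34 without wild type 1 and Tbx3 cKO 3, by -0.77 without Tbx3 cKO 3, and by -12.98 to 20.48 leaving out 1 library.

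The labels do not say what a shared replicate number stands for. Same-numbered libraries had correlations of deviations of 0.33, 0.02 and 0.04, the first the highest of the 9 pairs, and the numbers were not taken to pair the libraries. With a replicate block 13 genes of all and 0 members passed. Leaving out wild type 1 with Tbx3 cKO 1, the split by sex and each gene's level per globin were chosen after seeing the data. Values below 3 reads, as for Gfi1b in wild type 1, are limited by depth.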

Other observations

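Add2, Bcl11a, E2f2, Lmo2 and Myb of the wider erythroid list were highest in wild type 1, the library with the lowest summed red cell specific level. They were chosen after their values were seen, and none passed the adjusted limma threshold. Myb, a factor of blood precursors, was 7599, 4514 and 5134 in wild type against 4970, 3606 and 1161 in Tbx3 cKO, lowest in the library with the most Slc4a1. Add2, the beta adducin of red cell and neuronal membranes, was 5555, 2040 and 2321 against 1766, 1570 and 1875, with no overlap. Lmo2, a partner of Tal1, was 567, 118 and 110 against 237, 58.0 and 301. Its groups overlapped, with Tbx3 cKO 1 and Tbx3 cKO 3 between wild type 2 and wild type 1. Bcl11a, a repressor of embryonic globin genes that neurons also make, was 1428, 766 and 745 against 1186, 775 and 838, highest in both replicate 1 libraries. E2f2, a cell cycle factor, was 951, 704 and 855 against 928, 724 and 718, with overlap.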
